A study of Homo sapiens with 4 samples.

Results

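The MET family of receptor tyrosine kinases was followed together with what switches it on: 10 genes chosen by name, among the 60683 gene identifiers measured in HCT116, an established line of human colorectal carcinoma cells. They were the receptors MET and MST1R (the RON receptor), their ligands HGF and MST1, the serine proteases ST14, TMPRSS2 and TMPRSS4, the protease inhibitors SPINT1 and SPINT2, and the docking adaptor GAB1. The list was drawn up with results of this same comparison in view, so the values of these genes are given as a description, with the side of the threshold on which each fell and without a p-value.

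The FOXD2 libraries (n = 2) came from cells stably transduced with a pSin lentivirus carrying the whole coding sequence of the forkhead transcription factor FOXD2. The empty vector libraries (n = 2) came from cells given the same lentivirus without an insert, and both kinds of cells were held under puromycin selection. PolyA RNA was sequenced with a strand-specific kit. The labels do not say whether libraries of a group came from separate cultures or transductions, so the spread between them may be technical.

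MET binds hepatocyte growth factor, and RON binds macrophage-stimulating protein, the product of MST1. Both ligands are secreted as inactive precursors, in tissue mainly by mesenchymal cells (HGF) and by the liver (MST1), and gain activity once a serine protease cuts them. Matriptase, the product of ST14, makes that cut at the surface of epithelial cells, and the Kunitz-type inhibitors HAI-1 (SPINT1) and HAI-2 (SPINT2) hold it in check. Active receptors recruit GAB1 and drive growth, motility and wound closure of intestinal epithelium.

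The proximal promoters of both receptors are shown because MET was lower and MST1R higher in FOXD2 cells, and because FOXD2 belongs to a family that binds a known core motif. RefSeq sequences on GRCh38.p14, from 250 bases before to 50 bases after a gene's start, were matched for 5 of the 10 genes (MET, MST1R, HGF, MST1 and SPINT1). Each is written 5′ to 3′ on the strand of its gene, and capitals mark matches to the motifs searched on both strands.
MET promoter, chr7:116671946-116672245, plus strand: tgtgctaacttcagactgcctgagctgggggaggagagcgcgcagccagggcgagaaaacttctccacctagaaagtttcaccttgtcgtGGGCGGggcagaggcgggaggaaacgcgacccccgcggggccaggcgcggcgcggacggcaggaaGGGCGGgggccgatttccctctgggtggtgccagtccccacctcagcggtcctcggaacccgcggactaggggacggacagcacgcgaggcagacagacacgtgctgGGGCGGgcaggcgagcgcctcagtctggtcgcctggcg
MST1R promoter, chr3:49903824-49904123, minus strand: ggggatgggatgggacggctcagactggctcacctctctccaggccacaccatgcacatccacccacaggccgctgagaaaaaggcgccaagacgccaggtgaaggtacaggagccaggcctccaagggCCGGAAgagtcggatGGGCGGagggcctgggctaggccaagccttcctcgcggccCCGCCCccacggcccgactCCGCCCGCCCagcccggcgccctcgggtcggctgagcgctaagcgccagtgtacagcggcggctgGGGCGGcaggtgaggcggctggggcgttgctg
The motifs were the forkhead core TGTTTA, the SP1 box GGGCGG, the AP-1 site TGANTCA and the ETS core CCGGAA. The MET promoter held 3 SP1 boxes, at 160 and 95 bases before the start and 13 bases from it, and no match to the other motifs. The MST1R promoter held 5 SP1 boxes, of which the pair at 47 and 43 bases before the start share bases, and 1 ETS core at 121 bases before it. Neither window held the forkhead core, which was found in 12.3% of 35116 promoters of the same length, while the SP1 box was found in 45% and the ETS core in 17.2%. Of the other matched genes, SPINT1 had, at the first of its 2 RefSeq starts, 3 SP1 boxes and the AP-1 site TGACTCA at 6 bases before that start, a motif found in 7.71% of promoters. HGF had 1 forkhead core, written TAAACA on the strand of the gene, at 111 bases before its start. The GC content was 69.3% in the MET window and 71.3% in the MST1R window, against a median of 58.7% over all promoters. These matches are letters only, since no binding data were used here.

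FOXD2 itself had 8195 and 7011 counts in the FOXD2 libraries, against 49 and 42 counts in the empty vector libraries, or 7.32 higher on the log2 scale (SE 0.10, adjusted p = 4.7e-49 in edgeR). Libraries held between 14231368 and 15535845 counts assigned to genes. Of the colorectal epithelium markers, 5 of the 6 tested rose, while the intestinal factor CDX2 fell (log2 fold change -0.51). Over all tested genes 27.2% were called higher. The summed level of the markers was 7838 to 8346 CPM (counts scaled to library size) in FOXD2 cells and 4411 to 4543 CPM in empty vector cells. Most of that sum was the keratins KRT8, KRT18 and KRT19, with means of 4039, 1657 and 1820 CPM in FOXD2 cells. Among these markers CDX1 was at 0 in every library, and VIL1 and LGALS4 had at most 6 counts. Of 9 fibroblast markers, PDGFRA, DCN, LUM, FAP, THY1 and COL1A2 were at 0 in all 4 libraries, and the summed level of 32.2 to 33.4 CPM in FOXD2 cells and 9.51 to 11.2 CPM in empty vector cells was nearly all COL1A1. Summed markers of blood, endothelium and hepatocytes stayed below 4 CPM in every library. The part that such differences play in the values below was not tested.

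Of the 10 genes, 7 were expressed enough to be tested, and at an adjusted p under 0.05 (edgeR quasi-likelihood test) 5 of them were higher in FOXD2 cells, 1 was lower and 1 was not called. Of all 14470 genes tested, 53.5% were called (27.2% higher and 26.4% lower in FOXD2 cells), and nothing is read from the count of members against these shares. The largest difference was that of MET, a fall of more than 7-fold, while MST1R was almost 3-fold higher. The proteases and inhibitors moved less, and HGF, TMPRSS2 and TMPRSS4 were at or near 0. Only 3 members were called higher without FOXD2 replicate 2, or without empty vector replicate 2, since MST1 and GAB1 then missed the threshold.

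**Figure D1:**
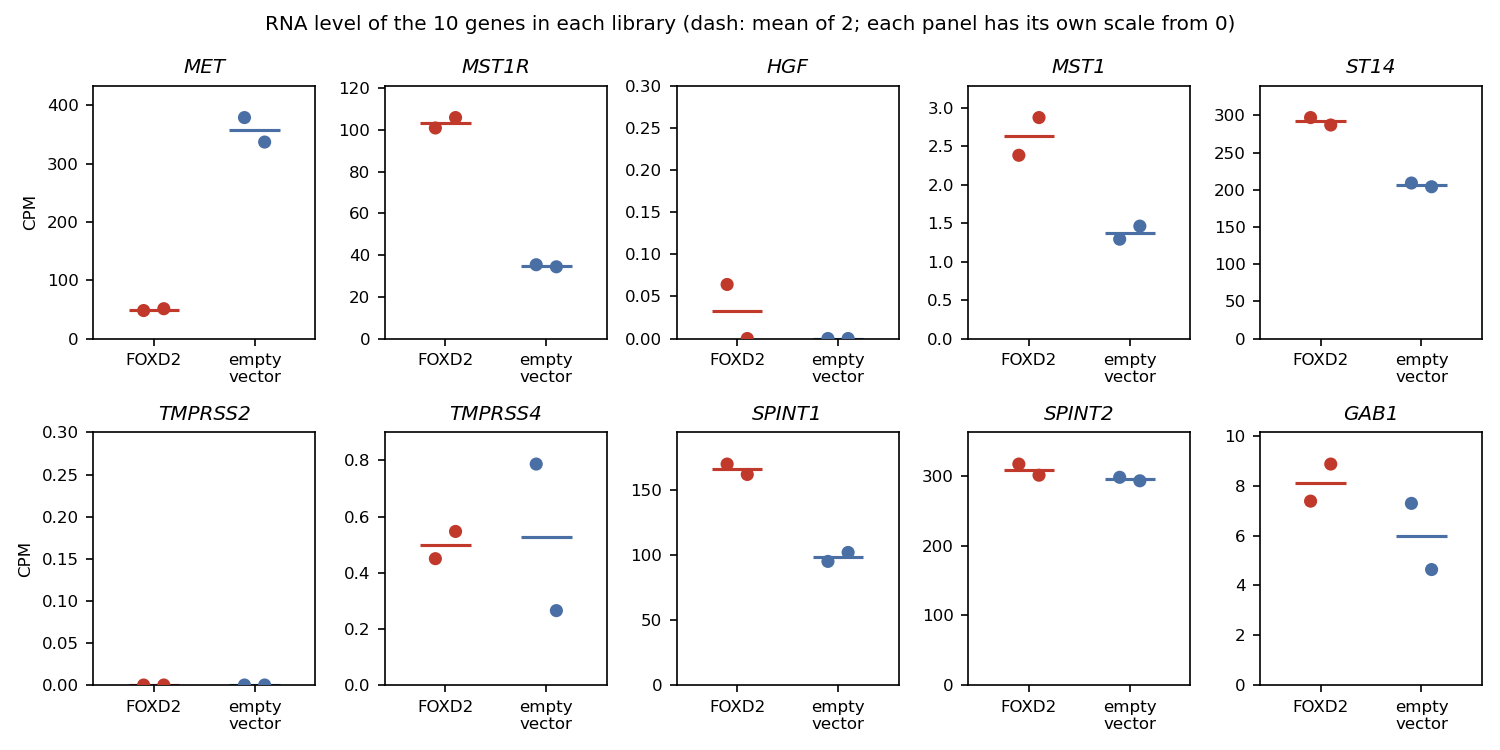
CPM of each of the 10 genes, in panels with linear axes of their own from 0, with 1 point per library, a dash at the mean of 2, and FOXD2 left of empty vector. MET lies between 48.0 and 51.1 CPM in FOXD2 cells and between 337 and 379 CPM in empty vector cells, while MST1R is higher in FOXD2 cells and TMPRSS4 overlaps between the groups.

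MET, the receptor of HGF, had 48.0 and 51.1 CPM in FOXD2 cells, against 379 and 337 CPM in empty vector cells. Both FOXD2 libraries lay far below both empty vector libraries, and the groups did not overlap. The means were 49.5 ± 2.21 CPM in FOXD2 cells and 358 ± 29.9 CPM in empty vector cells (n = 2 each, SD), which gave a log2 fold change of -2.85 (SE 0.07), or 7.22-fold lower. Behind these values stood 747 and 748 counts in FOXD2 cells and 5300 and 5085 counts in empty vector cells. MET ranked as the 14th lowest fold change of 14470 genes, and 1.15% of tested genes had a change at least as large in either direction. The gene (ENSG00000105976) lies on chromosome 7 from 116672390 to 116798386 on the plus strand (GRCh38, GENCODE 29). In RNA from whole cultures, fewer cells making a transcript and less of it per cell cannot be told apart.

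MST1R, which encodes the RON receptor, had 101 and 106 CPM in FOXD2 cells, against 35.4 and 34.4 CPM in empty vector cells. Every FOXD2 value was above every empty vector value. The means were 103 ± 3.33 CPM in FOXD2 cells and 34.9 ± 0.678 CPM in empty vector cells (n = 2 each, SD), which gave a log2 fold change of 1.56 (SE 0.08), or 2.96-fold higher, the 539th highest of the genes tested. The gene (ENSG00000164078) lies on chromosome 3 from 49887002 to 49903873 on the minus strand. An antisense transcript overlaps 4456 of its bases and had at most 1 count in a library.

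The order of both receptors differed between the groups. Per transcript length (in the authors' TPM, an abundance relative to all transcripts of a library), MET was at 10.0 and 11.6 TPM in FOXD2 cells and at 81.3 and 68.5 TPM in empty vector cells. MST1R was at 88.0 and 82.0 TPM in FOXD2 cells and at 31.8 and 28.5 TPM in empty vector cells. The ratio of MST1R to MET in TPM was 8.79 and 7.04 in FOXD2 cells and 0.391 and 0.417 in empty vector cells, so MST1R was the more abundant transcript in FOXD2 cells and the less abundant one in empty vector cells. The size of the ratio depends on the length given to MST1R: with the length of the longest coding transcript for each gene it averaged 3.05 in FOXD2 cells and 0.143 in empty vector cells. Summed over both receptors the level was 98.0 and 93.6 TPM in FOXD2 cells and 113 and 97.1 TPM in empty vector cells, and these values overlap. In CPM, which takes no account of length, the sum was 149 and 157 in FOXD2 cells and 414 and 371 in empty vector cells, lower in FOXD2 cells without overlap, so the overlap holds for the deposited lengths.

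Set among 58 receptor tyrosine kinase genes, MET ranked 18th and 17th by TPM in the FOXD2 libraries and 2nd in both empty vector libraries. MST1R ranked 2nd in both FOXD2 libraries, against 7th and 8th in the empty vector libraries. DDR1, a collagen receptor, was first in every library, at 122 ± 1.85 TPM in FOXD2 cells and 79.5 ± 5.35 TPM in empty vector cells (SD, n = 2 each). Of the 36 kinases tested, MET had the lowest fold change. Of the 34 tested kinases other than MET and MST1R, 12 rose and 10 fell, with a median log2 fold change of 0.11, beside 0.008 over all genes tested. Among those that fell, FLT3 was expressed enough to be tested only through the empty vector libraries (21 and 13 counts, against 3 and 7 in FOXD2 cells). Its call therefore follows from the filter. The shares over all genes tested were 27.2% called higher and 26.4% called lower.

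**Figure D2:**
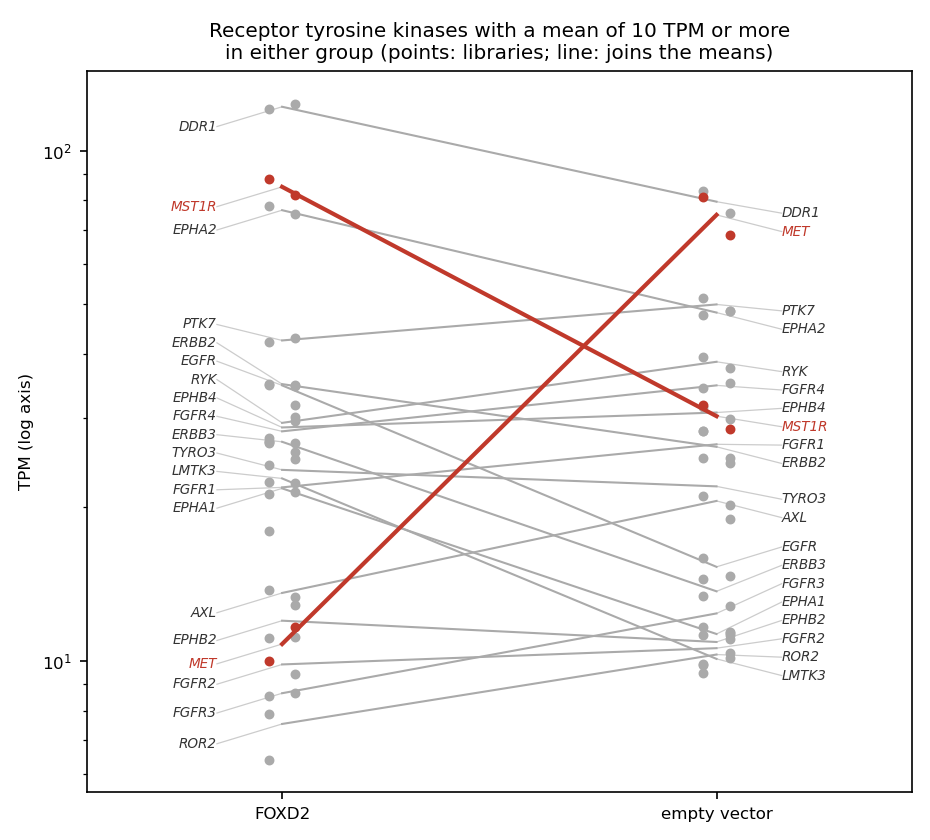
TPM on a logarithmic axis of receptor tyrosine kinase genes with a mean of 10 TPM or more in either group, with 1 point per library and lines joining the group means, FOXD2 left of empty vector. The lines of MET and MST1R (red) cross: MET is at 10.8 TPM in FOXD2 cells and 74.9 TPM in empty vector cells, and MST1R is at 85.0 TPM in FOXD2 cells and 30.2 TPM in empty vector cells.

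Among those kinases EGFR, the receptor of epidermal growth factor and a known partner of MET, averaged 250 ± 0.0667 CPM in FOXD2 cells and 114 ± 6.72 CPM in empty vector cells (log2 fold change 1.13, SE 0.06, edgeR adjusted p = 5.8e-22). LTK, a receptor close to ALK, rose more than MST1R did, to 17.9 ± 0.532 CPM in FOXD2 cells, against 3.56 ± 0.78 CPM in empty vector cells (log2 fold change 2.32, edgeR adjusted p = 2.5e-17). ERBB3 and LMTK3 rose by 0.85 and 1.11 on the log2 scale. AXL, the receptor of GAS6, fell to 44.8 ± 3.34 CPM in FOXD2 cells, against 69.2 ± 0.399 CPM in empty vector cells (log2 fold change -0.63, edgeR adjusted p = 2.6e-09). ROR1, ROR2 and FGFR3 had log2 fold changes of -0.93, -0.57 and -0.60, and each passed the threshold. These kinases were named by the size of their change, from a list drawn up with earlier results of these data known. Their p-values are therefore a description.

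The ligand transcripts were near 0 (HGF) or low (MST1). HGF had 1 count in FOXD2 replicate 1 and 0 counts in the other 3 libraries, and a count of 0 allows up to 3 counts, or 0.193 to 0.211 CPM in these libraries. HGF (chromosome 7, 81699008 to 81770438, minus strand) therefore gave no comparison. Ligand protein, its cleavage and any ligand in the culture serum are not measured by these libraries.

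MST1, the ligand of RON, had 2.38 and 2.87 CPM in FOXD2 cells, against 1.29 and 1.46 CPM in empty vector cells, from 37 and 42 counts in FOXD2 cells and 18 and 22 counts in empty vector cells. The FOXD2 values were the higher ones and the groups did not overlap. The log2 fold change was 0.93 (SE 0.34) and passed the threshold, but not with DESeq2 (0.92) or with limma on TPM (0.42), nor without FOXD2 replicate 2 (0.79), empty vector replicate 1 (0.84) or empty vector replicate 2 (1.01). MST1 (chromosome 3, 49683947 to 49689501, minus strand) has near-identical copies, MST1L and MST1P2, among which the counting divides reads by estimate. The deposited posterior SD of that estimate was 0.86 and 1.27 counts in FOXD2 cells and 0.72 and 0.96 counts in empty vector cells, small beside the counts themselves. MST1L had 4.05 and 5.47 CPM in FOXD2 cells and 2.57 and 3.05 CPM in empty vector cells. MST1P2 had 3.21 and 3.14 CPM in FOXD2 cells and 1.0 and 0.927 CPM in empty vector cells.

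Of the 3 proteases only ST14 was expressed at a level that could be compared. ST14, which encodes matriptase, had 297 and 287 CPM in FOXD2 cells, against 209 and 204 CPM in empty vector cells. Both FOXD2 libraries lay above both empty vector libraries, by far more than the spread within a group. Its means were 292 ± 7.21 CPM in FOXD2 cells and 207 ± 3.61 CPM in empty vector cells (n = 2 each, SD), and its log2 fold change of 0.50 (SE 0.06) was called higher. The gene lies on chromosome 11 from 130159562 to 130210376 on the plus strand. TMPRSS2, a membrane protease best known for cutting viral spike proteins, had 0 counts in all 4 libraries (chromosome 21, 41464551 to 41531116, minus strand). TMPRSS4, another membrane protease (chromosome 11, 118077012 to 118121890, plus strand), had 7 and 8 counts in FOXD2 cells and 11 and 4 counts in empty vector cells, values that overlap. Its ratio of CPM was 0.963, with an exact 95% interval for counting error of 0.439 to 2.11, so a change smaller than that was not detectable at this depth.

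SPINT1, which encodes the matriptase inhibitor HAI-1, had 170 and 162 CPM in FOXD2 cells, against 95.1 and 102 CPM in empty vector cells. The FOXD2 values were higher without overlap. The log2 fold change was 0.75 (SE 0.07), called higher, from means of 166 ± 5.82 CPM in FOXD2 cells and 98.7 ± 5.20 CPM in empty vector cells (SD, n = 2 each). SPINT1 (chromosome 15, 40844018 to 40858207, plus strand) shares 370 bases with the antisense gene SPINT1-AS1, which had 89 and 84 counts in FOXD2 cells and 53 and 74 counts in empty vector cells. Those counts are small beside the 2651 and 2372 of SPINT1 in FOXD2 cells and 1329 and 1546 in empty vector cells.

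SPINT2, which encodes HAI-2, had 317 and 301 CPM in FOXD2 cells, against 298 and 293 CPM in empty vector cells. The groups lay next to each other, with a gap smaller than the spread within the FOXD2 pair. The log2 fold change was 0.07 (SE 0.06, 95% interval -0.05 to 0.18), which was not called. SPINT2 lies on chromosome 19 from 38244035 to 38292614 on the plus strand.

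Per length, SPINT2 was the most abundant of the 10 genes in every library, at 295 ± 1.24 TPM in FOXD2 cells and 284 ± 16.7 TPM in empty vector cells. ST14 stood at 123 ± 1.66 TPM in FOXD2 cells and 84.8 ± 2.05 TPM in empty vector cells, and SPINT1 at 102 ± 1.37 TPM in FOXD2 cells and 64.3 ± 1.81 TPM in empty vector cells (SD, n = 2 each). The ratio of ST14 to SPINT1 plus SPINT2 was 0.310 and 0.307 in FOXD2 cells and 0.240 and 0.247 in empty vector cells, higher in FOXD2 cells without overlap. The ratio of ST14 to SPINT1 alone went the other way, 1.2 in both FOXD2 libraries and 1.37 and 1.27 in the empty vector libraries. SPINT2 outweighed SPINT1 by less in FOXD2 cells, where it was 2.86 and 2.90 times SPINT1, against 4.70 and 4.16 times in empty vector cells.

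GAB1, the docking adaptor that binds active MET, had 7.39 and 8.88 CPM in FOXD2 cells, against 7.30 and 4.64 CPM in empty vector cells. Empty vector replicate 1 nearly reached the lower FOXD2 library, so the groups were almost in contact. The log2 fold change of 0.45 (SE 0.19) was just past the threshold, fell to 0.15 and missed it without empty vector replicate 2, was 0.80 without empty vector replicate 1, and was 0.31 without FOXD2 replicate 2, where it also missed. On the TPM scale the groups overlapped, with 1.87 and 2.46 TPM in FOXD2 cells and 4.01 and 1.10 TPM in empty vector cells, and the direction turned (-0.04). GAB1 lies on chromosome 4 from 143336762 to 143474568 on the plus strand.

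**Figure D3:**
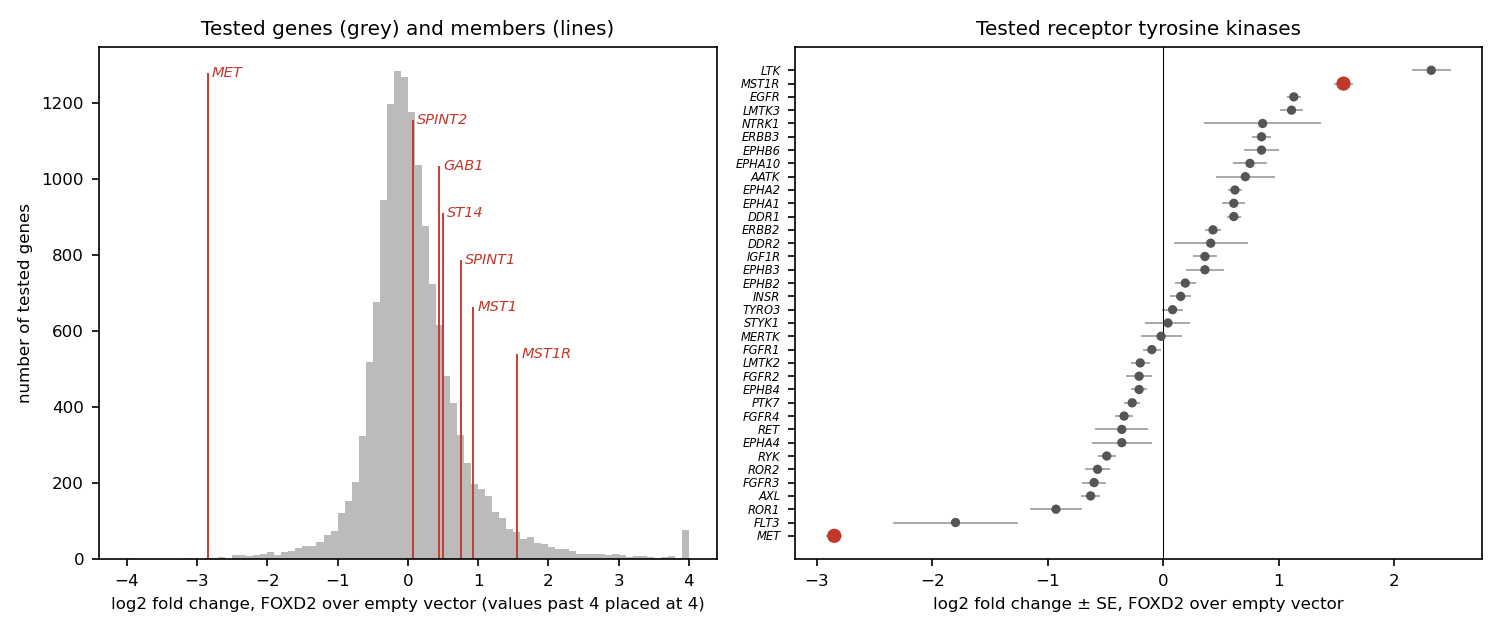
Left, histogram of log2 fold changes (FOXD2 over empty vector) of all tested genes with the 7 tested members as red lines, values past 4 being placed at 4. Right, log2 fold change ± SE of the 36 tested receptor tyrosine kinases, with MET at -2.85 as the lowest and MST1R at 1.56 as the highest but for LTK.

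The deposited tables also give each gene's mean transcript length weighted by abundance, a readout of the mix of transcript forms that was not used to choose the genes. For MET it was 6339 and 5950 bases in FOXD2 cells and 6168 and 6319 bases in empty vector cells, so the groups overlapped while the level fell. For MST1R it was 1673 and 1891 bases in FOXD2 cells and 1630 and 1709 bases in empty vector cells, again overlapping. The longest coding transcript of MST1R has 4536 bases, so its mean length was 39.3% of that in FOXD2 cells and 36.8% in empty vector cells. By this estimate transcripts shorter than the longest coding one made up most of MST1R in all 4 libraries. MET by contrast was near the 6635 bases of its longest coding transcript. For SPINT1 the mean length was 2316 and 2298 bases in FOXD2 cells and 2137 and 2151 bases in empty vector cells, without overlap, but 2 libraries against 2 cannot give an exact permutation p below 0.333. For GAB1 it was 5267 and 4934 bases in FOXD2 cells and 2531 and 5460 bases in empty vector cells, with empty vector replicate 1 apart from the other 3 libraries.

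**Figure D4:**
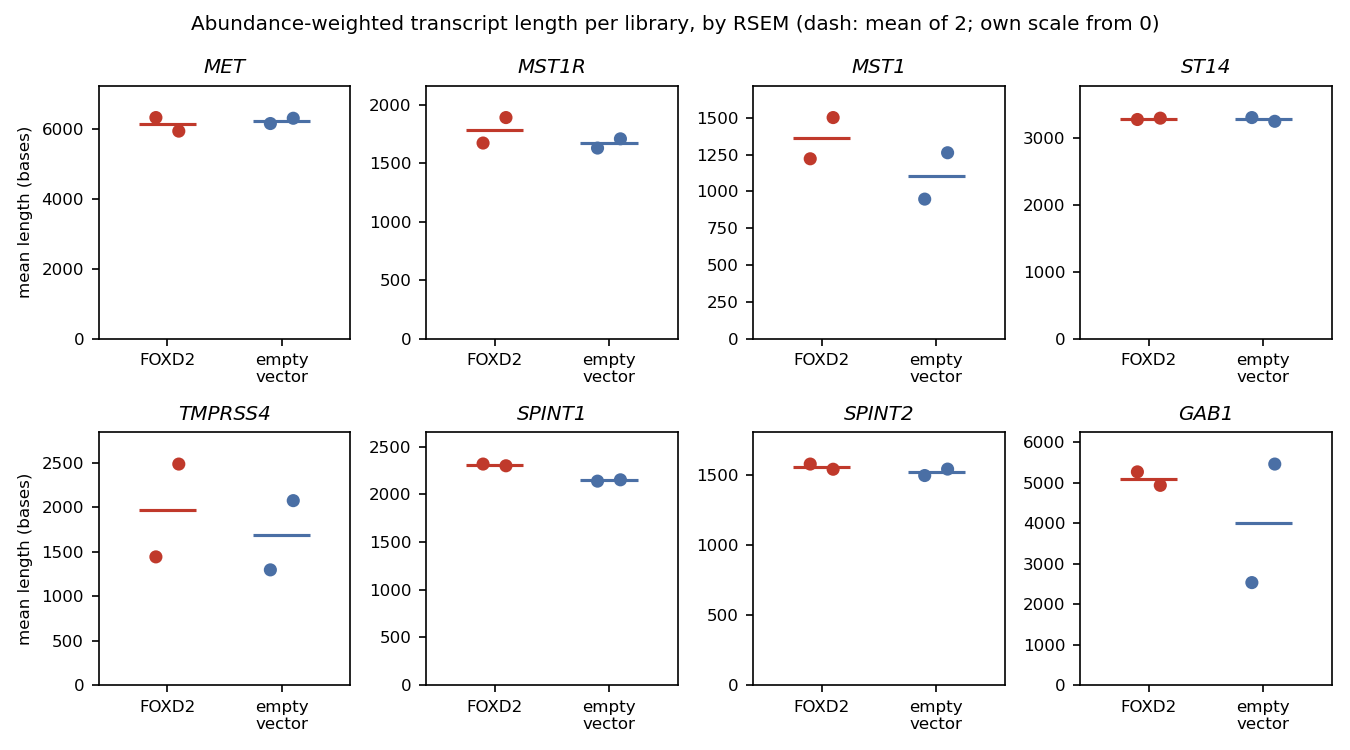
Abundance-weighted transcript length in bases, as deposited, for members with counts, 1 point per library, FOXD2 left of empty vector. Each panel has its own axis from 0, with a dash at the mean of 2. MET lies between 5950 and 6339 bases over both groups, MST1R between 1630 and 1891 bases, and GAB1 has 1 empty vector library at 2531 bases.

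Other proteases and inhibitors of ligand activation were taken from a textbook list of 12 genes, drawn up, as were the lists that follow, with earlier results of these data known. Of its 5 tested genes 4 rose, beside 27.2% called higher over all tested genes, and the median log2 fold change was 1.42. Among those 4, TMPRSS13 was expressed enough to be tested only through the FOXD2 libraries (73 and 72 counts, against 1 and 2 in empty vector cells). Its call therefore follows from the filter and adds nothing to that count. F12, a coagulation factor, did not pass (log2 fold change -0.17, edgeR adjusted p = 0.18). Urokinase (PLAU), which converts plasminogen and can cut the precursor of HGF, had 79.7 and 61.5 CPM in FOXD2 cells, against 24.6 and 28.3 CPM in empty vector cells (log2 fold change 1.42, SE 0.12, edgeR adjusted p = 6e-08). Tissue plasminogen activator (PLAT) had 26.3 and 29.9 CPM in FOXD2 cells, against 11.2 and 11 CPM in empty vector cells (log2 fold change 1.34, edgeR adjusted p = 6.3e-14). SERPINA5, the protein C inhibitor, had 7.20 and 10.7 CPM in FOXD2 cells, against 2.29 and 1.72 CPM in empty vector cells (log2 fold change 2.15, edgeR adjusted p = 1.1e-10). TMPRSS13, a membrane protease able to activate the HGF precursor, had 145 counts over the FOXD2 libraries and 3 counts over the empty vector libraries, a ratio of CPM of 46.5 (exact 95% interval 15.6 to 228, counting error only). HGFAC, the circulating activator of HGF, had 9 counts over the FOXD2 libraries and 1 count over the empty vector libraries and was not tested.

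Of 15 other membrane-anchored serine proteases, 3 were tested, of which 2 rose and CORIN did not pass (log2 fold change 0.21). The share called higher over all tested genes was 27.2%. Prostasin (PRSS8), which works in a cascade with matriptase, had 52.9 and 52.5 CPM in FOXD2 cells, against 30.4 and 26.9 CPM in empty vector cells (log2 fold change 0.88, SE 0.09, edgeR adjusted p = 2.9e-12). PRSS22 had 7.20 and 8.13 CPM in FOXD2 cells, against 3.43 and 2.98 CPM in empty vector cells (log2 fold change 1.26, edgeR adjusted p = 1.6e-06).

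All 6 known matriptase substrates on the list passed the test, 5 higher and 1 lower, with a median log2 fold change of 0.52. Over all tested genes 53.5% passed, 27.2% higher and 26.4% lower. PRSS8 and PLAU are among the substrates. The protease-activated receptor F2RL1 (PAR2) fell to 74.5 and 80.9 CPM in FOXD2 cells, against 249 and 232 CPM in empty vector cells (log2 fold change -1.63, SE 0.07, edgeR adjusted p = 6.7e-28). The adhesion protein gene EPCAM and CDCP1 changed little, with log2 fold changes of 0.15 and 0.16. Without FOXD2 replicate 1, or without empty vector replicate 2, the number higher was 3, and CDCP1 had a log2 fold change of 0.08 in each case.

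Of 16 co-receptors and membrane partners of MET, all tested, 12 rose and 3 fell, with a median log2 fold change of 0.50. Among all tested genes 27.2% were called higher and 26.4% lower. This list shares EGFR, ERBB2 and ERBB3 with the kinases above, so their rise is counted in both. ITGA6, the laminin-binding integrin subunit of the alpha6-beta4 pair, had 347 and 349 CPM in FOXD2 cells, against 179 and 175 CPM in empty vector cells (log2 fold change 0.98, SE 0.06, edgeR adjusted p = 9.1e-21). PLXNB3, a semaphorin receptor, had a log2 fold change of 1.68 and ICAM1, an adhesion molecule, of 1.03. NRP1, a co-receptor of semaphorins and growth factors, fell to 2.41 ± 0.41 CPM in FOXD2 cells, against 6.58 ± 0.713 CPM in empty vector cells (log2 fold change -1.45, edgeR adjusted p = 9.8e-07). SEMA4D, the ligand of plexin B1, had a log2 fold change of -0.43. CD44, whose long variant forms assist MET, had a log2 fold change of -0.14, which missed the threshold when FOXD2 replicate 2, empty vector replicate 1 or empty vector replicate 2 was left out (-0.11, -0.12 and -0.17).

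Downstream of the receptor, 8 of 33 adaptors and effectors rose, 10 fell and 15 did not pass, with a median log2 fold change of -0.01. The shares over all tested genes were 27.2% higher and 26.4% lower. GAB2, the paralogue of GAB1, had 12.3 and 10.2 CPM in FOXD2 cells, against 3.22 and 4.11 CPM in empty vector cells (log2 fold change 1.61, SE 0.19, edgeR adjusted p = 2.4e-10). STAT3, a transcription factor that MET can activate, had 112 and 123 CPM in FOXD2 cells, against 73.5 and 63.7 CPM in empty vector cells (log2 fold change 0.77, edgeR adjusted p = 2.4e-12). The RAS exchange factor SOS2 and the adaptor SHC1 rose by 0.77 and 0.54 on the log2 scale. PIK3CA, the catalytic subunit of a lipid kinase, fell to 23.4 and 25.2 CPM in FOXD2 cells, against 40.6 and 32.9 CPM in empty vector cells (log2 fold change -0.59, edgeR adjusted p = 3.3e-06). RAC1, NRAS and PAK4 had log2 fold changes of -0.43, -0.43 and -0.42, and each was called lower.

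Of 19 tested genes listed as ending MET signalling or shedding its outer domain, 6 rose and 5 fell. These shares were near those of all tested genes, 27.2% called higher and 26.4% called lower. TNS4, a tensin listed there that is known to bind MET and keep it at the surface, and thus does not act as the list is named, had 121 and 108 CPM in FOXD2 cells, against 32.5 and 31.3 CPM in empty vector cells (log2 fold change 1.84, SE 0.08, edgeR adjusted p = 1.7e-26). The receptor phosphatases PTPRF and PTPRJ, both known to act on MET, changed in opposite directions. PTPRF had 481 and 478 CPM in FOXD2 cells, against 348 and 330 CPM in empty vector cells (log2 fold change 0.50, edgeR adjusted p = 3.3e-11). PTPRJ had 18.7 and 20.4 CPM in FOXD2 cells, against 46.2 and 41.3 CPM in empty vector cells (log2 fold change -1.16, SE 0.10, edgeR adjusted p = 1e-14). The phosphatase PTPN1 rose by 0.55 on the log2 scale, and the sheddase ADAM10 had a log2 fold change of -0.29. TIMP3, an inhibitor of sheddases, and CBLB, a ubiquitin ligase, had log2 fold changes of -1.02 and -0.46. Both missed the threshold without FOXD2 replicate 1 (-0.88 for TIMP3 and -0.34 for CBLB) and without empty vector replicate 1 (-0.89 and -0.24), where the number lower was 3.

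The protein-coding genes next to MET on chromosome 7 were not among the genes chosen by name. Counting the neighbours, here and around MST1R, was decided after the data were seen. Of the 5 on each side, 6 were tested and all 6 were called lower in edgeR, with a median log2 fold change of -0.54. With DESeq2 the number called lower was 5, and with limma on log2(TPM + 1) it was 4. Over the 10 alternatives ST7 ran from -0.61 to -0.32 and MDFIC from -0.45 to -0.17. Of all tested genes 26.4% were called lower, and their median was 0.008. CAV1, which encodes caveolin-1 and starts at -148 kb (distances are between gene starts, negative toward lower coordinates), had 123 and 103 CPM in FOXD2 cells, against 347 and 385 CPM in empty vector cells (log2 fold change -1.69, SE 0.07, edgeR adjusted p = 1.2e-16). CAV2, at -385 kb, had 59.3 and 58.8 CPM in FOXD2 cells, against 172 and 184 CPM in empty vector cells (log2 fold change -1.59, SE 0.07, edgeR adjusted p = 1.3e-26). The annotated CAV2 gene runs from 116287380 to 116508541, so its end lies nearer to MET than this distance. TES at -462 kb had a log2 fold change of -0.50, CAPZA2 at 139 kb of -0.32 and ST7 at 281 kb of -0.58. Changes at least as large as these, in either direction, were found in 26.1% (ST7) to 50.1% (CAPZA2) of tested genes. MDFIC, the farthest at -1750 kb, had -0.36 and missed the threshold without FOXD2 replicate 1 (-0.28) or without empty vector replicate 1 (-0.30). TFEC, WNT2, ASZ1 and CFTR had at most 3 counts in a library. Among the genes tested at this locus the fall was largest at MET, then at CAV1 and CAV2. CAV1 at -148 kb and CAPZA2 at 139 kb lie about equally far from MET between gene starts, and had -1.69 and -0.32. This measure leaves out the extent of genes: CAPZA2 starts at 116811070, just past the end of MET at 116798386. A relation of the falls to distance was not tested. The smallest falls, at CAPZA2 (SE 0.07) and MDFIC (SE 0.14), could not be told apart.

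Around MST1R on chromosome 3, 6 of 10 neighbours were tested, 2 rose and 4 did not pass, with a median log2 fold change of 0.26. Over all tested genes 27.2% were called higher. MON1A, at 26.3 kb, had 26.7 and 22.3 CPM in FOXD2 cells, against 12.6 and 13.7 CPM in empty vector cells (log2 fold change 0.90, SE 0.12, edgeR adjusted p = 1.3e-08). RBM5, a splicing factor gene at 185 kb, had a log2 fold change of 0.50 (edgeR adjusted p = 7.7e-08). RBM6, SEMA3F, INKA1 and TRAIP did not pass, with log2 fold changes of 0.10, 0.15, 0.38 and 0.01. The closest tested neighbours, MON1A and RBM6 at 36.1 kb, thus differed in whether they passed.

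**Figure D5:**
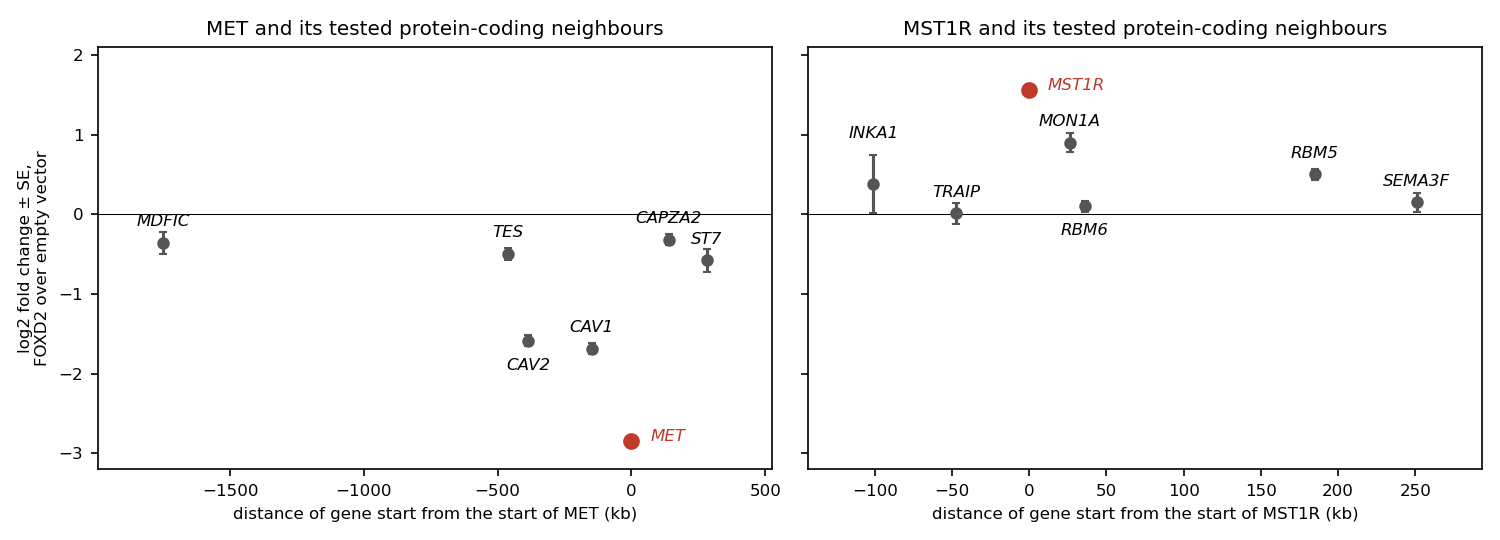
Log2 fold changes of FOXD2 over empty vector (± SE) of MET and of MST1R (red) and of their tested protein-coding neighbours, against the distance between gene starts in kb. Every tested neighbour of MET is below 0, with CAV1 at -1.69 and CAV2 at -1.59, while around MST1R the values run between 0.01 and 0.90.

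The genes whose 4 library values were most like those of MET, by the Euclidean distance of log2 CPM centred on each gene's mean over 12724 genes, were TFPI, WNT16, CYP24A1, PCDH7 and ADAM19, at distances of 0.146, 0.203, 0.204, 0.226 and 0.243. Their log2 fold changes were -2.89, -2.69, -2.90, -3.09 and -2.63. TFPI encodes an inhibitor of the tissue factor pathway that also carries Kunitz domains, and WNT16 lies on the long arm of chromosome 7 as MET does. With 4 libraries in 2 groups this measure mostly compares the difference between the groups.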

How the data were processed

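Reads were processed with RSEM 1.2.31 and STAR 2.7.2b on GRCh38, per the submitters' processing notes. The annotation release and the strand setting of the counting are not given in the sources used here. Per the file headers, the deposited tables hold an RSEM expected count per gene, which divides reads that map to several genes and need not be whole. The same deposited tables hold TPM and FPKM computed by the authors, and other columns, namely transcript lengths and posterior estimates. FPKM was not used. TPM depends on the estimated transcript length, so an error in that length moves a level between genes.

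Expected counts were rounded and tested with edgeR 4.0.16 under R 4.3.3 (quasi-likelihood, TMM, filterByExpr, robust fit, 2 FOXD2 against 2 empty vector libraries), with Benjamini-Hochberg adjustment over 14470 genes and a threshold of 0.05. p-values are two-sided and set the difference between the groups against the spread between these libraries, estimated with information shared across genes. That spread may be technical only. CPM uses TMM-scaled library sizes. SE is that of the log2 fold change. DESeq2 1.42.0 and limma 3.58.1 on log2(TPM + 1) were alternatives, as were other filters and scaling, a replicate block and leaving out each library. The fit was tested on simulated data. It recovered 89 of 100 genes changed by 1 on the log2 scale and 61 of 100 changed by 0.5. Among the 14251 genes of that step there were 23 false calls. Libraries of a group differed by more than sampling noise (chi-square per degree of freedom 4.13 for FOXD2 and 2.62 for empty vector). Intervals and limits from counts cover only counting error, since without molecular identifiers reads may be copies of 1 molecule.

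Symbols were matched for 60370 of 60683 identifiers, and 58496 were found in GENCODE 29. No sample column was left unused. Named genes are FOXD2, the members, the 5 nearest protein-coding genes on each side of either receptor gene, and the 5 genes most like MET. Of each list, up to 4 called genes per direction with the largest change are named (mean log2 CPM at or above 1). DDR1, ERBB2, FLT3, HGFAC, EPCAM, F12, CORIN, MST1L and MST1P2 were named after their values were seen. Some genes that the rule names are not reported here. The members and lists were chosen with earlier results of these data known, so the p-values of list genes are also a description.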

Additional observations from a re-analysis of the deposited data

How the results depend on the processing

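Directions of MET (-2.94 to -2.68), MST1R (1.46 to 1.59), ST14 (0.47 to 0.53), SPINT1 (0.66 to 0.80) and FOXD2 (6.67 to 7.49) and their side of the threshold were kept under all 10 alternatives, and SPINT2 stayed uncalled (0.02 to 0.10). Over 64 named genes and 640 comparisons, 598 kept both, 35 lost the call and 7 changed sign. The cause was not tested for any of these. DESeq2 called 2412 genes higher (3929 in edgeR) and 2798 lower (3814), and limma on log2(TPM + 1) called 2424 lower. With a library left out, 3149 to 3579 were higher and 3053 to 3676 lower. Members called higher were 3 with DESeq2 and with limma and 3 to 5 with a library left out. Matriptase substrates higher were 3 with DESeq2 and with the replicate block and 3 to 5 with a library left out. Genes of MET down-regulation called lower were 2 with DESeq2 and with limma and 3 to 5 with a library left out. With limma, co-receptors called lower were 1 and other kinases called lower 6, GAB1 was at -0.04, CBLB at 0.13 and TRAIP at -0.13. TRAIP, uncalled, was at -0.01 with DESeq2 and without a filter, and at -0.14 to 0.13 with a library left out. The ratio of MST1R to MET averaged 2.08 in FOXD2 cells and 0.0978 in empty vector cells from CPM, and 3.05 in FOXD2 cells and 0.143 in empty vector cells from longest coding lengths. The ratio of ST14 to both inhibitors was 0.615 in FOXD2 cells and 0.524 in empty vector cells from CPM, and 0.365 in FOXD2 cells and 0.297 in empty vector cells from longest coding lengths.

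With a library left out, the variance of the library left alone is borrowed from the other group, an assumption. With the replicate block, 3680 genes were higher and 3494 lower. Deviations of same-numbered libraries from their group means had a correlation of -0.116 over 12605 genes, and the labels do not say that a number marks a shared batch, so no pairing was assumed and a shared batch was not tested. A crossed block, chosen after seeing the data, called 4144 higher and 4087 lower. The longest coding lengths and the neighbour counts were also chosen then. Counts of 0 to 11 per library limit HGF, TMPRSS2 and TMPRSS4.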
